A study of Mus musculus with 36 samples.

Results

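Tubulin genes of the newborn mouse brain were examined in ribosome-protected fragments (RPFs) and in whole-brain RNA. The 10 genes were chosen by symbol: 3 α-tubulins (Tuba1a, Tuba1b, Tuba1c), 6 β-tubulins (Tubb2a, Tubb2b, Tubb3, Tubb5, Tubb4a, Tubb4b) and 1 γ-tubulin (Tubg1). They are 10 of the 16614 genes in the count table, and 433 of the 278002 called RPF peaks lay on their transcripts. The brains came from mice 5 days old, either wild type (WT, C57BL/6) or FMR1 KO, which lack the fragile X protein FMRP, and 10 brains were pooled for each preparation. RPFs were sequenced from the pellet of a sucrose gradient and from its fraction 5/6, labelled granule and polysome, and RNA-seq came from the starting homogenate. The study describes the pellet as enriched in stalled ribosomes but leaves unclear whether it holds only those of neuronal RNA granules. Its electron microscopy showed ribosome clusters in both fractions. In the standard preparation the gradient held 10 mM MgCl2 and the nuclease was used at a high level. In the low nuclease preparation 2.5 mM MgCl2, less nuclease, another temperature and another collection of monosomes were used together, so these changes cannot be told apart. Each of the 12 groups (2 genotypes, 3 kinds of library and 2 preparations) held 3 libraries, 36 in all, and peaks were called in the 12 standard RPF libraries. All values below are from the standard preparation unless the low nuclease one is named. The libraries hold all cells of the brain, so that whether these transcripts came from neurons was not measured, and fewer cells of a type cannot be told apart from less RNA per cell.

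α- and β-tubulin pair as heterodimers that polymerise into microtubules, and γ-tubulin nucleates them as part of the γ-tubulin ring complex. Growing axons and dendrites of the newborn brain use large amounts of tubulin, with Tuba1a as the main α-tubulin of postmitotic neurons, Tubb3 as a β-tubulin used as a neuronal marker, Tubb2a, Tubb2b and Tubb5 as further β-tubulins of the developing brain, and Tuba1b, Tuba1c and Tubb4b expressed in many tissues. Tubulin mRNAs are also known for autoregulation: when free dimers are in excess, the first residues of the nascent chain are recognised on the ribosome and the mRNA is degraded.

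The genes stand at 7 separate places in the genome (GRCm38). Tuba1b (chr15:98931425-98934565, minus strand), Tuba1a (chr15:98949837-98953703, minus strand) and Tuba1c (chr15:99029891-99038110, plus strand) are neighbours, as are Tubb2a (chr13:34074274-34078007, minus strand) and Tubb2b (chr13:34126748-34130354, minus strand). The others are Tubb3 (chr8:123411424-123422015, plus strand), Tubb5 (chr17:35833921-35838306, minus strand), Tubb4a (chr17:57080066-57087782, minus strand), Tubb4b (chr2:25222160-25224702, minus strand) and Tubg1 (chr11:101119938-101126419, plus strand). Tubg1 has 11 exons and every other gene 4.

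How much of each coding sequence could be told from its paralogs was computed with windows of 30 nt, about the length of an RPF. A window was taken as unique when it occurred once in the primary chromosomes and in no transcript of another gene. Unique windows made up 6.93% of the coding windows of Tuba1a, 2.21% of Tuba1b and 6.52% of Tuba1c. Among the β-tubulins the share was 30.9% for Tubb2a, 22.3% for Tubb2b, 21.8% for Tubb4b, 70.9% for Tubb3 and 95.1% for both Tubb5 and Tubb4a, and it was 65.9% for Tubg1. Tuba1a and Tuba1b were 98.3% identical in coding bases, Tubb2a and Tubb2b 96.5%, and the other β-tubulin pairs 82.0 to 84.6%. With windows of 100 nt over the whole transcript, nearer to an RNA-seq read, the unique share was 49.8% for Tuba1a, 25.5% for Tuba1b, 46.5% for Tuba1c and 99.6% for Tubb5. How the authors treated reads that match several places is not given in the sources used here, so counts of an α-tubulin may hold only part of its reads.

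The coding sequence around 8 of the 11 positions with a peak in all 6 pellet libraries is shown first, since these sites carry the peak results. Each line gives up to 15 codons with the codon of the peak in capitals, read from GRCm38 with the transcript models of Ensembl, and codon 1 is the start codon.
Tuba1a codon 223: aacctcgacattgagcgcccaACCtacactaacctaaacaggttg
Tuba1c codon 130: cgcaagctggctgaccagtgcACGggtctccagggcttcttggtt
Tubb2a codon 75: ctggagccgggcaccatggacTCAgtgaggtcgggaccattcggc
Tubb2b codon 55: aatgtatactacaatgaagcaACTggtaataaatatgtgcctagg
Tubb2b codon 202: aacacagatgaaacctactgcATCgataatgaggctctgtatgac
Tubb2b codon 387: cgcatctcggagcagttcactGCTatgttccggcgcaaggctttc
Tubb2b codon 440: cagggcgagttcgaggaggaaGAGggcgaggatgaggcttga
Tubb3 codon 255: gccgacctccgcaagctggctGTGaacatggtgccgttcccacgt

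Around codon 202, where both Tubb2b and Tubb2a had peaks, the β-tubulins can be told apart. Here capitals mark bases that differ from Tubb2b, 4 in Tubb2a and 7 each in Tubb4b and Tubb5.
Tubb2b codon 202 window: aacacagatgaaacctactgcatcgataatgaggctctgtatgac
Tubb2a codon 202 window: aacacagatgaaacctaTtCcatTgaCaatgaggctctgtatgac
Tubb4b codon 202 window: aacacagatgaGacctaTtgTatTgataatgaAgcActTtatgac
Tubb5 codon 202 window: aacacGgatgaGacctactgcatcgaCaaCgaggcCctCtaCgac

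The standard RPF libraries held 6765065 to 40174168 counts, of which 36.7 to 63.4% were assigned to Cdk8, and the standard RNA-seq libraries 112249206 to 147216378. Cdk8 was left out, and levels are given as CPM, counts scaled to the same library total, of the remaining counts. Fmr1 stood at 60.6 to 100 CPM in the WT standard libraries other than the library labelled WT fraction 5/6 replicate 3, which held 3.17 CPM, and at 4.79 to 18.1 CPM in FMR1 KO. The tests of pellet against fraction 5/6 are therefore also given without that library. Of the low nuclease RNA-seq libraries, 3 had 81.5 to 85.0% of counts on 10 genes. Summed oligodendrocyte markers were at 391 to 725 CPM in RNA-seq against 63.2 to 127 CPM in the standard RPFs. Summed neuronal markers were at 3424 to 4048 CPM in RNA-seq against 1998 to 2890 CPM in the pellet. In fraction 5/6 the neuronal markers were at 2254 to 3606 CPM in WT and 3434 to 4843 CPM in FMR1 KO, which overlapped RNA-seq. Their part in the results was not tested.

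The 10 tubulins together took 0.956 to 2.21% of the counts of the standard RPF libraries and 1.10 to 1.59% of those of RNA-seq. In the WT pellet Tubb5 stood at 6245, 6425 and 5187 CPM in the 3 replicates, and in RNA-seq at 2472, 3228 and 2959 CPM. Tuba1a stood at 1255, 1448 and 1004 CPM in the pellet and at 3957, 4759 and 4667 CPM in RNA-seq. In CPM the order of these 2 genes was opposite in RPFs and in RNA, with no overlap between their replicates in either, but per unique window, given below, Tuba1a lay above Tubb5 in both.

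FMR1 KO libraries showed the same order in CPM. Tubb5 was at 6977, 4020 and 6922 CPM in the FMR1 KO pellet and at 3266, 2450 and 3283 CPM in RNA-seq. Tuba1a was at 1153, 711 and 1318 CPM in the pellet and at 5142, 3462 and 4973 CPM in RNA-seq. The second replicate was the lowest of the 3 for both genes in both kinds of library.

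**Figure D1:**
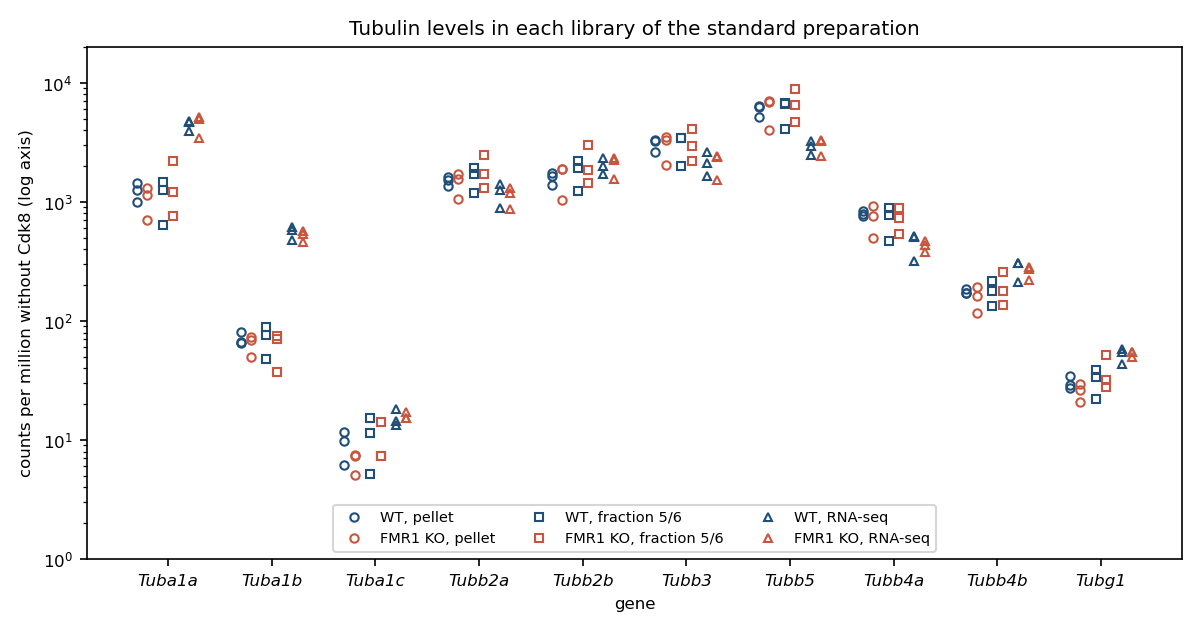
Levels of the 10 tubulin genes in each standard library, in CPM without Cdk8 on a log axis, for pellet, fraction 5/6 and RNA-seq of WT and FMR1 KO. Tubb5 lies above Tuba1a in every pellet library, and Tuba1a lies above Tubb5 in every RNA-seq library.

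To compare levels between genes, CPM was divided by length. Per kb of transcript in WT RNA-seq, Tuba1a led with a mean of 2474 CPM per kb. It was followed by Tubb3 (1144), Tubb5 (1090), Tubb2b (924) and Tubb2a (736), whose neighbours overlapped over the replicates, and by Tuba1b (319), Tubb4a (200), Tubb4b (173), Tubg1 (29.0) and Tuba1c (7.77). Per kb of coding sequence in the WT pellet, Tubb5 led with 4459 CPM per kb, then Tubb3 (2267), Tubb2b (1195), Tubb2a (1123) and Tuba1a (911). Of these, Tubb2b overlapped Tubb2a, and Tubb2a overlapped Tuba1a, over the replicates. The remaining pellet order was Tubb4a (597), Tubb4b (132), Tuba1b (52.7), Tubg1 (22.4) and Tuba1c (6.80).

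The place of the α-tubulins depended on the length used. Divided by unique windows instead of by all coding bases, Tuba1a led the WT pellet with 13144 CPM per 1000 unique windows, above Tubb2b (5366) and Tubb5 (4690), and Tuba1b stood at 2381. In WT RNA-seq, per 1000 unique windows of 100 nt, Tuba1a was also highest (5255), and Tubb2b (1401), Tuba1b (1323), Tubb2a (1251), Tubb3 (1220) and Tubb5 (1137) lay close together.

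The α-tubulin share of the α- and β-tubulin counts was 33.9 to 38.0% in the 6 RNA-seq libraries, 7.74 to 9.83% in the 6 pellet libraries and 7.03 to 10.5% in the 6 fraction 5/6 libraries. Pellet and fraction 5/6 overlapped, and both lay below all RNA-seq libraries. In the low nuclease pellet the share was 12.4 to 15.4%, above every standard pellet library. With counts divided by unique windows, a scale added after the data were seen, the gap narrowed to 42.0 to 48.2% in the pellet (36.4 to 42.3% with windows of 36 nt) against 52.1 to 56.9% in RNA-seq, still without overlap. The low nuclease pellet then lay above its RNA-seq, at 52.8 to 57.6% against 40.9 to 50.5%, and with 36 nt the 2 overlapped. Within the β-tubulins, Tubb5 took 45.2 to 47.6% of the counts in the pellet against 30.9 to 34.8% in RNA-seq, and Tubb2b 11.8 to 12.9% against 21.8 to 23.6%. Within the α-tubulins, Tuba1b took 5.06 to 6.45% in the pellet against 9.77 to 11.8% in RNA-seq, and Tuba1a 92.6 to 94.5% against 87.8 to 89.9%.

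The comparison of the pellet with RNA-seq, called occupancy here, asks how strongly the RPFs of the pellet represent an mRNA relative to its abundance. In counts not corrected for unique sequence, β-tubulins had high occupancy and Tuba1a and Tuba1b low occupancy in both genotypes. Per 1000 unique windows, Tuba1a had a mean of 13144 CPM in the WT pellet and 5255 CPM in WT RNA-seq, and Tuba1b 2381 and 1323 CPM. In FMR1 KO the values were 11283 and 5331 CPM for Tuba1a and 2142 and 1252 CPM for Tuba1b. RPF and RNA-seq windows differ in length and region, so this scale cannot give the direction of occupancy. In WT every member had a higher mean in the pellet on it, including Tubb5 (4690 and 1137 CPM) and Tubg1 (33.9 and 32.4 CPM). The α-tubulin share per unique window stayed lower in the pellet, at 42.0 to 48.2% against 52.1 to 56.9% in RNA-seq. The fits below use the counts as deposited. In WT, 7 members passed the test with higher and 2 with lower occupancy (edgeR quasi-likelihood test, Benjamini-Hochberg adjusted p below 0.05 over all genes tested), beside 31.1% of all genes higher and 34.2% lower. In FMR1 KO, 6 were higher and 2 lower, beside 31.8 and 35.2% of all genes. The median log2 fold change of the members was 0.66 in WT and 0.55 in FMR1 KO, and that of all genes −0.10 and −0.07. The p-values measure the spread between these preparations.

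Of the α-tubulins, Tuba1b was 3.51-fold lower in the WT pellet than in RNA-seq (log2 fold change −1.81 ± 0.13 SE, n = 3 and 3, edgeR adjusted p = 2.1e-05), with 67.2, 81.5 and 65.5 CPM in the pellet and 481, 576 and 611 CPM in RNA-seq. The replicates lay far apart between pellet and RNA-seq. Tuba1a fell by 0.71 ± 0.16 on the log2 scale (adjusted p = 0.0055) and in FMR1 KO by 1.01 ± 0.21 (adjusted p = 0.0040), again without overlap. Tuba1c, with 6.20, 11.6 and 9.73 CPM in the WT pellet and 13.4, 14.5 and 18.4 CPM in RNA-seq, did not pass the test in WT (0.39 ± 0.23, adjusted p = 0.161) or in FMR1 KO (−0.13 ± 0.24, adjusted p = 0.656). Leaving out 1 library gave 0.22 to 0.57 in WT, and it passed without WT pellet replicate 1 (0.57). It rested on no more than 254 counts in any standard RPF library.

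Of the β-tubulins, Tubb5 rose most, 4.58-fold in WT (log2 fold change 2.19 ± 0.18 SE, adjusted p = 3.3e-05) and by 2.08 ± 0.21 on the log2 scale in FMR1 KO (adjusted p = 0.00014). Tubb4a, at 798, 835 and 758 CPM in the WT pellet and 317, 518 and 504 CPM in RNA-seq, rose by 1.99 ± 0.21. Tubb3 rose by 1.67 ± 0.21 and Tubb2a by 1.49 ± 0.20. Tubb2b rose less, by 0.81 ± 0.17 (adjusted p = 0.0037), although it shares most of its sequence with Tubb2a, but per unique window the ratio of Tubb2b to Tubb2a was higher in the pellet than in RNA-seq, as given with the paralog ratios. Tubb4b rose by 0.51 ± 0.17 (adjusted p = 0.0285), and the γ-tubulin Tubg1 by 0.36 ± 0.13 (adjusted p = 0.0361) in WT, while it did not pass the test in FMR1 KO (0.04 ± 0.09, adjusted p = 0.716). The WT call of Tubb4b was lost without any one of the 3 pellet replicates (0.46 to 0.50), and that of Tubg1 without pellet replicate 1 (0.33) or 2 (0.30) or RNA-seq replicate 1 (0.27). In FMR1 KO Tubb2b, at 0.73 ± 0.21 (adjusted p = 0.0177), lost its call without pellet replicate 1 (0.59) or 3 (0.65), and Tubb4b, at 0.37 ± 0.12 (adjusted p = 0.0326), without pellet replicate 1 (0.34) or 3 (0.26) or RNA-seq replicate 2 (0.31) or 3 (0.40).

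These directions are relative to the other genes. With library size in place of TMM scaling, the median of all genes moved by −1.15 in WT and −1.10 in FMR1 KO, the log2 fold changes of Tubb2b, Tubb4b and Tubg1 fell below 0 in both genotypes and that of Tuba1c in WT. The calls were then 3 higher (Tubb3, Tubb5, Tubb4a) and 5 lower in WT, beside 8.79% of all genes higher and 67.6% lower, and 2 higher (Tubb5, Tubb4a) and 5 lower in FMR1 KO, beside 7.96% and 62.0%. Tuba1a and Tuba1b were lower and Tubb5 and Tubb4a higher under both scalings.

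Occupancy was set beside the share of sequence that is unique. Over the 10 genes Spearman's rho between the log2 fold change and the percent of unique 30 nt coding windows was 0.851 in WT and 0.912 in FMR1 KO, as a description over genes that share sequence, libraries and scaling. Tuba1b, with the lowest unique share, had the lowest occupancy, and Tubb5 and Tubb4a, with the highest unique share, had the highest. Tubg1, with 65.9% unique windows, was an exception, below Tubb2a, Tubb2b and Tubb4b in both genotypes. The part of read assignment in the occupancy values was not tested.

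**Figure D2:**
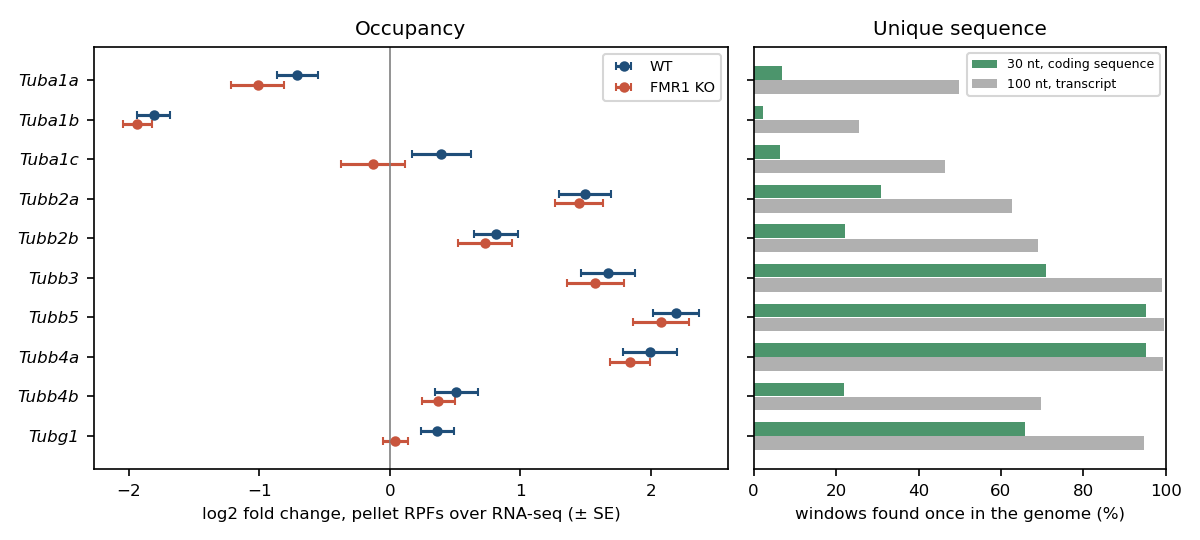
Log2 fold change of pellet against RNA-seq (TMM scaling, bars are SE, n = 3 and 3) for each tubulin gene in WT and FMR1 KO, beside the percent of its 30 nt coding windows and 100 nt transcript windows that are unique. Tuba1a and Tuba1b lie below 0 and have few unique windows, and Tubb5 and Tubb4a lie highest at 95.1% unique windows, while Tubb2b, Tubb4b and Tubg1 turn below 0 when library size replaces TMM.

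In the low nuclease preparation the WT log2 fold change was −1.78 for Tuba1b and 2.13 for Tubb5, close to the standard values, while Tuba1a moved to 0.26 in WT and 0.30 in FMR1 KO and did not pass the test. RNA-seq libraries with counts concentrated on 10 genes enter that comparison. Fraction 5/6 against RNA-seq, which shares its RNA-seq libraries with the values above, ranged over the members from −1.73 (Tuba1b) to 2.26 (Tubb5) in WT and from −2.21 to 2.05 in FMR1 KO. That WT range includes the library labelled WT fraction 5/6 replicate 3 and is not given without it.

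Other genes of the tubulin system were counted in the same WT comparison from 4 lists. Of the 8 tested genes of the γ-tubulin ring complex, 5 were higher and 1 lower, with a median log2 fold change of 0.61, where all genes had 31.1% higher, 34.2% lower and a median of −0.10. Tubgcp5 (1.49) and Tubgcp2 (1.35), which build the ring, were higher, and Mzt1 (−4.21), a small subunit, was lower. Of 9 other tubulins 8 were higher and 1 lower, but some were nearly absent from RNA-seq. Tuba3a held 167, 78 and 45 counts in the WT pellet and 0, 8 and 0 in RNA-seq, and Tuba3b 12, 4 and 15 against 0, 4 and 2, so their fitted fold changes are not read here. Tuba8, at 18.4 to 28.4 CPM in the WT pellet and 2.28 to 4.68 CPM in RNA-seq, was higher by 3.91 on the log2 scale.

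Of 13 folding cofactors and autoregulation genes 6 were higher and 3 lower. Tbce (1.70) and Tbcd (1.39), cofactors that assemble the heterodimer, were higher, and Tbca (−1.30), which binds β-tubulin, was lower. Of 15 tubulin-modifying enzymes 3 were higher and 7 lower, with a median of 0.03. The deacetylase Hdac6 (2.08) was higher, and Svbp (−3.14), the partner of the vasohibin detyrosinases, and Agbl5 (−1.59), a deglutamylase, were lower. In FMR1 KO the counts were 5 and 3 of 8, 6 and 1 of 8, 7 and 3 of 13, and 3 and 7 of 15 in the same order of lists, beside 31.8% higher and 35.2% lower over all genes.

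Ratios between paralogs within a library do not depend on the scaling. The 8 pairs were compared between the 6 pellet and the 6 RNA-seq libraries of both genotypes by two-sided exact permutation tests with Benjamini-Hochberg adjustment over the pairs, where 0.0022 is the smallest p. The log2 ratio of Tuba1a to Tuba1b was 4.06 ± 0.15 (SD, n = 6) in the pellet and 3.05 ± 0.12 in RNA-seq, a difference of 1.01 (exact permutation adjusted p = 0.0025). The ratio of Tubb2b to Tubb2a was 0.11 ± 0.10 in the pellet and 0.82 ± 0.11 in RNA-seq (difference −0.71, exact permutation adjusted p = 0.0025). For both pairs all pellet libraries lay on one side of all RNA-seq libraries.

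The other pairs passed too. The ratio of Tubb4b to Tubb4a was −2.18 ± 0.05 in the pellet and −0.70 ± 0.07 in RNA-seq (difference −1.48), that of Tubb2b to Tubb5 −1.90 ± 0.03 and −0.54 ± 0.06 (difference −1.36), and that of Tubb3 to Tubb5 differed by −0.50. The ratio of Tubb5 to Tubb4b differed by 1.69 and that of Tuba1b to Tuba1c by −1.97, without overlap. The groups overlapped for Tuba1a to Tuba1c (difference −0.96, exact permutation adjusted p = 0.0043).

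In the low nuclease preparation, whose RNA-seq includes the 3 libraries with counts concentrated on 10 genes, the direction for Tuba1a to Tuba1c turned (0.50, exact permutation adjusted p = 0.0217, with overlap). The difference for Tuba1a to Tuba1b was larger there (2.22) and so was that of Tubb3 to Tubb5 (−1.05), and that of Tubb4b to Tubb4a was smaller (−0.47), with overlap.

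When counts were divided by the unique windows of each gene, 30 nt for RPFs and 100 nt for RNA-seq, the difference for Tubb2b to Tubb2a turned from −0.71 to 0.37. That of Tuba1a to Tuba1b became 0.38, or 0.09 with windows of 36 nt (exact permutation adjusted p = 0.27), that of Tubb4b to Tubb4a −0.38, or −0.66 with 36 nt, and that of Tubb2b to Tubb5 −0.09, with overlap, or −0.31 with 36 nt, without overlap. The differences of Tubb3 to Tubb5 (−0.63), Tubb5 to Tubb4b (0.85), Tuba1a to Tuba1c (−1.10) and Tuba1b to Tuba1c (−1.48) kept their sign, without overlap. Of the 8 pairs, 1 changed sign with the correction for unique sequence.

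**Figure D3:**
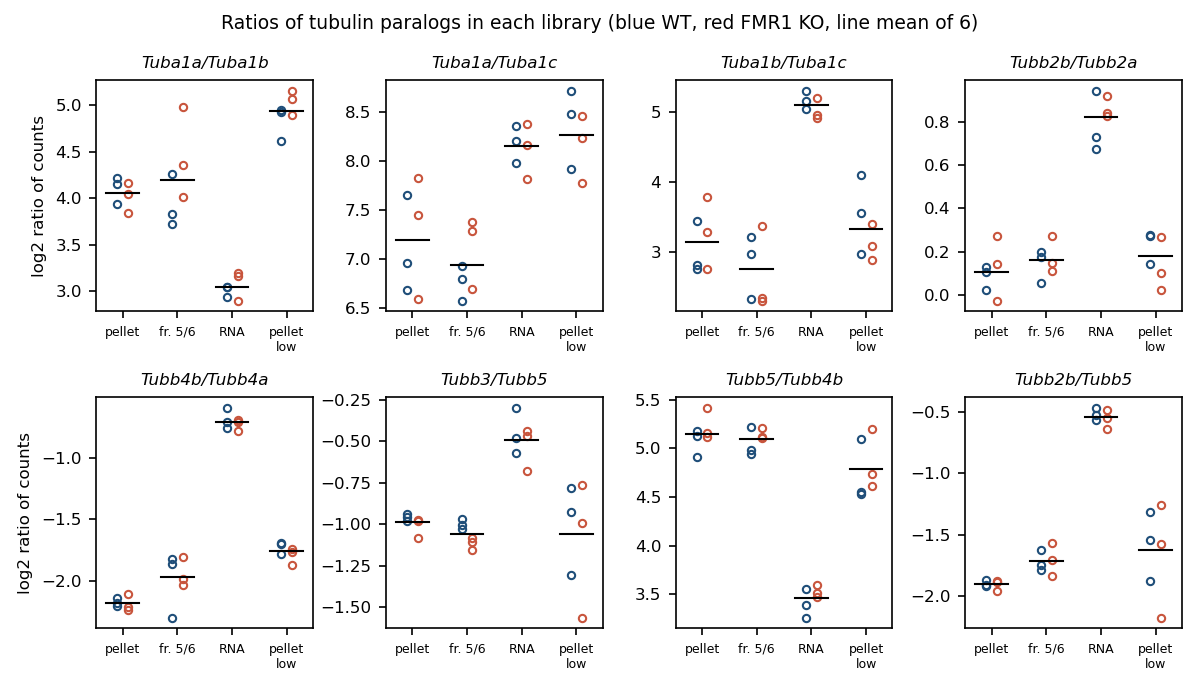
Log2 ratio of CPM between paralogs in each library of the pellet, fraction 5/6, RNA-seq and low nuclease pellet (blue WT, red FMR1 KO, line mean of 6). The pellet and RNA-seq points are apart for every pair except Tuba1a/Tuba1c, whereas pellet and fraction 5/6 overlap for every pair except Tubb2b/Tubb5.

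The comparison of pellet with fraction 5/6, called enrichment, asks whether an mRNA's RPFs are found more in the pellet than in fraction 5/6. In WT, 0 of 10 members passed the test (edgeR, all genes 0.0229%), with log2 fold changes of −0.16 to 0.19 and adjusted p of 0.730 to 0.972. At an unadjusted p below 0.05 the count was 0, and DESeq2 called 0. With that doubtful library (replicate 3 of WT fraction 5/6) left out, the range was −0.15 to 0.31 (adjusted p 0.226 to 0.906), with 0 called. In FMR1 KO, 0 of 10 passed (edgeR, all genes 11.5%), with log2 fold changes of −0.16 to 0.43 and adjusted p of 0.260 to 0.989, and the count was 0 at an unadjusted p below 0.05 and 0 with DESeq2. Leaving out FMR1 KO fraction 5/6 replicate 2 gave 1 member called higher. Of the other genes of the tubulin system, 4 of the 8 tested γ-tubulin ring complex genes were higher in the FMR1 KO pellet, with a list median of 0.29. In WT 0 of the 8 were called, with a list median of 0.16, and the difference between the genotypes was not tested. The 13 folding cofactors and autoregulation genes had 1 higher and 1 lower in FMR1 KO, with a median of −0.40, and the other tubulins and the modifying enzymes had 0 called, with medians of 0.09 and −0.0026.

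Tubb5 illustrates the spread. It stood at 6831, 4110 and 6678 CPM in WT fraction 5/6, and at 4689, 6577 and 8907 CPM in FMR1 KO fraction 5/6, so that the WT pellet values given above fell inside the range of fraction 5/6 and those of FMR1 KO overlapped it.

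The spread of the within-library log2 ratios differed between pairs, from an SD of 0.03 (Tubb2b to Tubb5) to 0.52 (Tuba1a to Tuba1c) in the pellet. Of the 8 pairs, only Tubb2b to Tubb5 differed between pellet and fraction 5/6 (−1.90 ± 0.03 and −1.71 ± 0.10, difference −0.19, n = 6 and 6, exact permutation adjusted p = 0.0173), by −0.18 in WT and −0.20 in FMR1 KO. All pellet libraries lay below all fraction 5/6 libraries. Tubb4b to Tubb4a differed by −0.21, which did not pass after adjustment (exact permutation p = 0.028, adjusted p = 0.11). Without WT fraction 5/6 replicate 3 the difference was −0.21 for Tubb2b to Tubb5 (−0.21 within WT) and −0.28 for Tubb4b to Tubb4a, and both pairs passed (exact permutation adjusted p = 0.0173 for each). In the low nuclease preparation Tubb2b to Tubb5 did not pass (−0.10, exact permutation adjusted p = 0.799), while Tubb4b to Tubb4a did (−0.23, exact permutation adjusted p = 0.0173), without overlap.

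FMR1 KO and WT were compared in the pellet, in RNA-seq and in occupancy. In the pellet 0 members passed (edgeR, all genes 0.0152%), with log2 fold changes from −0.38 to 0.01. The count at an unadjusted p below 0.05 was 1, Tubg1, at −0.21 on the log2 scale. In RNA-seq 0 passed (edgeR, all genes 0.0736%), with −0.06 to 0.09 and adjusted p of 0.9995, 0 at an unadjusted p below 0.05. For the change in occupancy between the genotypes, an interaction term, 0 passed (edgeR, all genes 0.0670%), with −0.49 to −0.01, adjusted p of 0.851 to 1 and 0 at an unadjusted p below 0.05. DESeq2 called 0 in each. A difference of tubulin mRNAs between genotypes was not detectable with 3 libraries a group, which does not show that they were equal.

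The standard and low nuclease pellets were compared within each genotype. In WT, 2 members were higher in the standard pellet (edgeR, all genes 15.0%) and 0 lower (all genes 24.0%). Tubg1 rose by 0.35 ± 0.08 (adjusted p = 0.0169) and Tubb4a by 0.40 ± 0.12 (adjusted p = 0.0459). In FMR1 KO, 1 member was higher (all genes 7.40%) and 0 lower (all genes 9.53%), Tuba1b, by 0.42 ± 0.10 (adjusted p = 0.0371). With library size in place of TMM the median of all genes moved by −0.52 in WT and −0.50 in FMR1 KO, and these members moved with it below 0 (Tubg1 −0.17 and Tubb4a −0.13 in WT, Tuba1b −0.086 in FMR1 KO), with 0 members higher and 3 lower in WT, beside 2.02% of all genes higher and 49.2% lower, and 0 higher and 0 lower in FMR1 KO, beside 2.03% and 25.8%. Leaving out 1 library at a time kept the fold changes, at 0.34 to 0.42 for Tubg1, 0.35 to 0.48 for Tubb4a and 0.36 to 0.47 for Tuba1b, but changed the calls. In WT 0 calls were left without pellet replicate 1 or without low nuclease pellet replicate 1 or 3, 1 without pellet replicate 2 or 3, and 3 were made without low nuclease pellet replicate 2. In FMR1 KO the call was lost without any one pellet replicate or without low nuclease pellet replicate 2 or 3.

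Tuba1a had the lowest log2 fold changes of the members in that comparison. It stood at 2604, 2877 and 2188 CPM in the WT low nuclease pellet and 2438, 2359 and 1954 CPM in the FMR1 KO one. Every standard pellet library lay below these, but with TMM scaling the log2 fold changes of −0.54 (adjusted p = 0.0572) and −0.61 (adjusted p = 0.111) did not pass in edgeR. DESeq2 called Tuba1a lower in both genotypes. The ratio of Tuba1a to Tuba1b, which needs no scaling between libraries, was 4.06 ± 0.15 in the standard and 4.94 ± 0.18 in the low nuclease pellet (exact permutation adjusted p = 0.0087, n = 6 and 6), without overlap. That of Tubb4b to Tubb4a was lower by 0.42 in the standard pellet (exact permutation adjusted p = 0.0087), also without overlap. These ratios were not divided by unique windows, and the study reports longer RPFs with low nuclease. From windows of 30 nt to 36 nt the unique coding windows went from 94 to 138 for Tuba1a and from 30 to 36 for Tuba1b. The part of RPF length in these differences was not tested.

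Peaks, stretches where RPFs pile up on a transcript, were at 116 positions of the 10 transcripts when those within 6 nt were joined. Of the 433 peaks, 420 lay in coding sequence, 13 in the 5′ UTR and 0 in the 3′ UTR. A peak was present in all 12 libraries at 6 positions, in all 6 pellet libraries at 11 and in a single library at 43. Tubb2b had the most peaks (87) and Tubb4a the fewest (5, in 2 libraries). All coding bases of Tubb4a are covered by unique windows. Tubb3 had 22 peaks in 10 libraries, Tubb5 54 and Tuba1a 46. The 76 peaks of Tubg1 were spread over 32 positions, with heights of only 6 to 61, and 8 of the 13 peaks in a 5′ UTR were on this gene. The 52 peaks of Tubb4b stood at 12 positions, none of them found in all 12 libraries. The number per library was 37.3 ± 4.6 (SD, n = 6) in the pellet and 34.8 ± 5.2 in fraction 5/6 (exact permutation p = 0.424, two-sided), and the difference of 2.50 became 1.33 without WT fraction 5/6 replicate 3 (exact permutation p = 0.693). As a share of all peaks of a library the order was opposite, at 0.151 ± 0.053% in the pellet and 0.199 ± 0.084% in fraction 5/6, a difference of −0.048 (exact permutation p = 0.266, two-sided) and of −0.063 without that library (exact permutation p = 0.178).

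Peaks of the α-tubulins stood at bases covered by unique windows. Of the 420 coding peaks, 406 stood at a base covered by at least 1 unique window. Such bases made up 5.16% of the Tuba1b coding sequence, 17.0% of Tuba1a and 14.1% of Tuba1c, and 100% of Tubb5 and Tubb4a. The exceptions, 10 peaks of Tubb4b at codon 93 and 4 of Tubb2b, stood at bases with 0 unique windows.

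**Figure D4:**
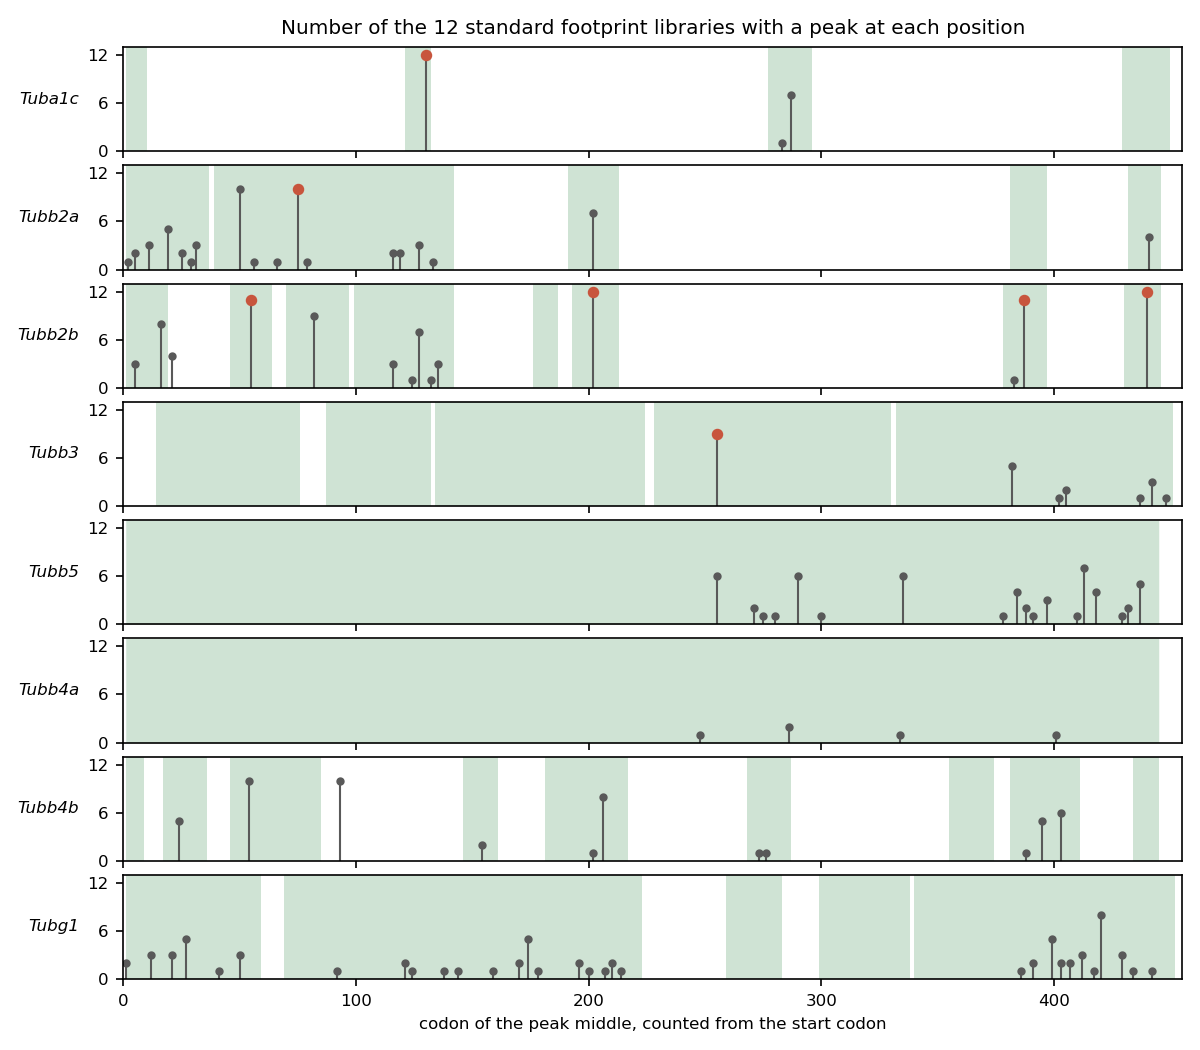
Number of the 12 standard RPF libraries with a peak at each codon of 8 of the tubulin genes, with bases covered by at least 1 unique 30 nt window in green and positions with a peak in all 6 pellet libraries in red. Peaks of Tuba1c stand in the few green stretches, whereas Tubb5 and Tubb4a are green throughout and have no red position.

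Tuba1b had 1 peak, in all 12 libraries. Its height was 1286, 912 and 705 in the WT pellet and 1170, 402 and 943 in WT fraction 5/6, and 997, 558 and 822 in the FMR1 KO pellet. It made up 86.0 to 94.4% of all Tuba1b counts in a library, so that nearly the whole Tuba1b level in RPFs came from 1 site. Of the 1356 coding windows of Tuba1b only 30 were unique, however, and 28 of these cover the peak. The share therefore does not show how RPFs lie over the rest of the coding sequence, and the part of read assignment in it was not tested. In Tuba1c the peak at codon 130 made up 32.6 to 74.1% of the counts, on heights of 24 to 150.

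Tuba1a had 3 positions with a peak in all 6 pellet libraries. Of these, codon 223 held 10.9 to 18.1% of the gene's counts in the 11 libraries where a peak was called, with heights of 803 to 3754. The share of counts varied less than the heights. An overlapping gene model, Gm49450, listed 0.9997 to 1.003 times the Tuba1a counts in the RPF libraries and had peaks at the place of 2 of the Tuba1a peaks in all 12 libraries, at 0.919 to 1.05 times their height. It had none at codon 223, in 0 of the 11 libraries.

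Tubb2b had 4 such positions. Codon 202 held 4268, 2436 and 2102 in the WT pellet and 9.84 to 13.6% of the counts over the 12 libraries, codon 387 6.40 to 12.8% in 11 libraries, and codon 440, in the acidic C-terminal tail, 4.40 to 14.5% in 12. Codon 55 held 4.65 to 7.18% in 11 libraries. In Tubb2a codon 75 held 6.83 to 11.4% in 10 libraries, and in Tubb3 codon 255 4.21 to 5.63% in 9. The single peaks of Tubb5 held between 2.55 and 4.35% of its counts, and none was found in more than 7 libraries, the one at codon 413.

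Peaks at matching codons of paralogs were counted, taken as within 3 codons. The 19 β-tubulin positions with a peak in at least 6 libraries were set against each other β-tubulin. Of the 75 such pairs where the paralog has a unique window, 55 had no paralog peak in any library, 20 had one in at least 1 library and 8 in at least 4, and a match between 2 of the 19 positions counts from both genes. Tubb2b had a peak at codon 202 in 12 libraries and Tubb2a in 7, with the 4 base differences shown above, while Tubb3, Tubb5 and Tubb4a had one in 0 libraries there and Tubb4b in 1. Only 14 of 30 windows over the Tubb4b codon are unique, and Tubb4b had a peak at codon 206, outside the matching distance, in 8 libraries. Codon 55 of Tubb2b (11 libraries) matched codon 54 of Tubb4b (10), codon 255 of Tubb3 (9) matched codon 255 of Tubb5 (6), and codon 440 of Tubb2b (12) matched codon 441 of Tubb2a (4) and codon 437 of Tubb5 (5). Of the other side, codon 75 of Tubb2a (10 libraries) had 0 libraries with a Tubb2b peak, where 16 of 30 windows over the Tubb2b codon are unique.

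Heights as a share of the gene's summed peak height are given as a description, since positions were taken because all 6 pellet libraries had a peak there, which favours a higher pellet value. At codon 255 of Tubb3 the share was 61.9 ± 30.7% (SD, n = 6) in the pellet and 19.3 ± 23.0% in fraction 5/6, where 3 libraries had no peak at this codon. Tubb3 had a peak in only 10 of the 12 libraries. Fraction 5/6 libraries without any Tubb3 peak were entered as 0, although their share is undefined. At codon 75 of Tubb2a the share was 25.2 ± 7.3% in the pellet and 12.1 ± 10.5% in fraction 5/6, where 2 had none. With joining within 3 nt the pellet value at codon 75 of Tubb2a was 19.7 ± 11.5%, and the difference went from 13.1 to 7.60. Codon 202 of Tubb2b held 21.6 ± 2.1% (SD, n = 6) in the pellet and 20.7 ± 2.9% in fraction 5/6, and codon 440 11.8 ± 3.8 and 13.9 ± 5.3%. Codon 130 of Tuba1c held 88.2 ± 9.3 and 87.6 ± 14.2%. Pellet and fraction 5/6 libraries overlapped at each of these 5 positions, which were picked after their values were seen.

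**Figure D5:**
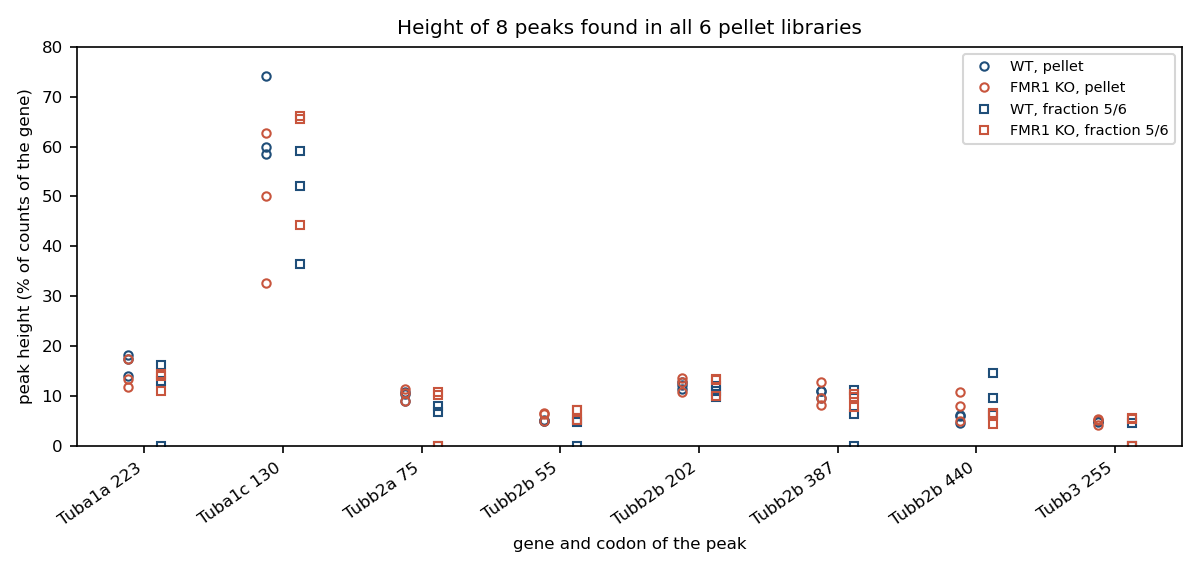
Height of the peak as a percent of the gene's counts in the 12 standard RPF libraries at 8 of the 11 positions with a peak in all 6 pellet libraries (points at 0 mean that no peak was called). Codon 130 of Tuba1c holds 32.6 to 74.1% in every library, and no other position shown exceeds 18.1%.

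Genes whose levels were most like those of 3 members over the 18 standard libraries were found by Pearson's r of log2 CPM among 9152 genes, as a description in which the kinds of library set much of the pattern. They were Gm49450 (0.9999), Gorasp1 (0.992) and Vdac3 (0.990) for Tuba1a, L3mbtl3 (0.960), Gata3 (0.948) and Eif4a3 (0.944) for Tubb2b, and Plk2 (0.992), Plrg1 (0.990) and Pgd (0.988) for Tubb5. The first overlaps Tuba1a in the genome.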

How the data were processed

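The authors trimmed reads with Cutadapt 2.10, removed rRNA and other noncoding reads with Bowtie2 2.3.5, aligned the rest to GRCm38 with STAR 2.7.8a, removed duplicates with Picard and SAMtools 1.19.2 and deposited counts per gene from featureCounts 2.2.0. The deposited peak files give each peak's position on a transcript and its height as coverage signal, not scaled between libraries. The study's methods ask for a peak height at least 4 times the transcript mean and for the peak in every sample, but 43 tubulin positions have a peak in 1 library only, so the deposited lists were not limited to shared peaks. The treatment of reads that match several places is not given in the sources used here. Counts of protein-coding genes without Cdk8 were tested with edgeR 4.0.16 (R 4.3.3): TMM, filterByExpr, quasi-likelihood test, Benjamini-Hochberg over all genes, threshold 0.05. DESeq2 1.42.0 was an alternative. Ratios and peaks were compared by exact permutation tests (scipy 1.17.1). The edgeR and permutation steps were tested on simulated data. Peaks within 6 nt were joined. Depth limits the lowest genes, Tuba1c and Tubg1. Genes named are the 10 members, the 3 list genes of largest change per list that the text gives, and the 3 closest genes to 3 members. The members and lists were chosen with earlier results of these data known. Sequences came from GRCm38, and no protein sequences were used. Some tubulin sequences and sites are not reported here.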

Additional observations from a re-analysis of the deposited data

Results flagged for a closer look

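Sets of 6 libraries, both genotypes together, were checked for the standard pellet, fraction 5/6 and RNA-seq and for the low nuclease pellet. In 2 of the 56 sets the highest or lowest library stood apart from the other 5 by Dixon's 95% criterion, which chance alone meets in about 5% of sets. The log2 ratio of Tubb3 to Tubb5 was −1.08 in FMR1 KO pellet replicate 1, below the other pellet libraries. The relative height of the Tuba1a peak at codon 223 was 0 in WT fraction 5/6 replicate 2, where no peak was called within 6 nt, while the other fraction 5/6 libraries had one. That library had a Tuba1a peak at codon 219, outside this joining distance, with a height of 713 (12.7% of the gene's counts). With joining within 12 nt, the fraction 5/6 mean went from 22.4 ± 11.5 to 26.3 ± 3.6% (SD, n = 6).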

How the results depend on the processing

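Occupancy. With library size alone, members called were 3 higher and 5 lower in WT and 2 and 5 in FMR1 KO. The log2 fold changes were then −0.76 (Tuba1c), −0.33 (Tubb2b), −0.65 (Tubb4b) and −0.78 (Tubg1) in WT and −0.35 (Tubb2b), −0.72 (Tubb4b) and −1.06 (Tubg1) in FMR1 KO, as this scaling moved all genes together. In the low nuclease preparation 1 was lower in each genotype, with Tuba1a at 0.26 (WT) and 0.30 (FMR1 KO) and Tuba1c at −0.20 in WT. Leaving out a library gave 0.22 to 0.57 for Tuba1c in WT, −0.43 to 0.023 for Tuba1c and −0.020 to 0.11 for Tubg1 in FMR1 KO, and 0 to 1 members called higher in FMR1 KO enrichment. The cause of these moves was not tested.

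Standard against low nuclease pellet. In WT members called higher were 0 with library size alone and 1 with all 12 groups in one fit, and called lower 3 with library size alone and 1 with DESeq2. In FMR1 KO they were 0 higher with library size alone, 0 with all 12 groups and 1 lower with DESeq2. With library size alone the values were −0.34 (Tuba1b), −0.41 (Tubb2a), −0.19 (Tubb3), −0.26 (Tubb5), −0.13 (Tubb4a) and −0.17 (Tubg1) in WT and −0.086 (Tuba1b), −0.25 (Tuba1c), −0.48 (Tubb2a), −0.15 (Tubb3), −0.25 (Tubb5), −0.21 (Tubb4a) and −0.33 (Tubg1) in FMR1 KO. Tubb2b was 0.014 (DESeq2) and 0.028 (all groups) in WT and 0.014 (DESeq2), 0.0021 (Cdk8 kept), 0.021 (replicate block) and 0.021 (all groups) in FMR1 KO, and Tubb4b in WT 0.00057 (DESeq2) and 0.015 (all groups). Leaving out a library gave 0 to 3 members called higher in WT and 0 to 1 in FMR1 KO, with Tubb2b −0.15 to 0.086 and Tubb4b −0.093 to 0.035 in WT, and Tuba1c −0.011 to 0.53, Tubb2a −0.10 to 0.16 and Tubb2b −0.13 to 0.24 in FMR1 KO.

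Paralog ratios. Against RNA-seq, Tuba1a to Tuba1b was 0.089 with unique windows of 36 nt, Tuba1a to Tuba1c reversed to 0.50 in the low nuclease preparation, and Tubb2b to Tubb2a 0.37 and 0.29 with unique windows of 30 and 36 nt. Pellet against fraction 5/6 in the low nuclease preparation gave 0.024 for Tubb2b to Tubb2a, −0.23 for Tubb4b to Tubb4a, now called, and −0.10 for Tubb2b to Tubb5, no longer called. Between preparations, with fraction 5/6 in place of the pellet, Tuba1b to Tuba1c was 0.084, Tubb2b to Tubb2a 0.0031, Tubb5 to Tubb4b 0.43 and Tubb2b to Tubb5 −0.19. Leaving out a library gave −0.23 to 0.022 for Tuba1a to Tuba1b and −0.28 to −0.18 for Tubb4b to Tubb4a between pellet and fraction 5/6, and −0.031 to 0.13 for Tubb3 to Tubb5, 0.31 to 0.44 for Tubb5 to Tubb4b and −0.39 to −0.20 for Tubb2b to Tubb5 between preparations.

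Peaks. The pellet to fraction 5/6 difference in relative height, in percent, was −0.90 at Tuba1c codon 130 for peaks from the median height and −2.33 at Tubb2b codon 202 with joining within 3 nt, where it was 7.60 at Tubb2a codon 75. Leaving out a library gave −3.41 to 3.64 at Tuba1c codon 130 and −0.52 to 2.101 at Tubb2b codon 55.

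With the replicate block, members called were 7 higher and 2 lower in WT occupancy, 6 and 2 in FMR1 KO occupancy, and 1 (WT) and 0 (FMR1 KO) higher between preparations. Deviations of same-numbered libraries correlated at −0.162 to 0.216, and not every pair exceeded 0.1 in any comparison. These correlations cannot show whether libraries with one number came from the same preparation.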
